A study of Mus musculus with 5 samples.

Results

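The genes described here govern how hepatocytes make, break down and store glucose. They are Pck1, G6pc and Fbp1 of gluconeogenesis, Pklr of glycolysis, Gys2 and Pygl of glycogen metabolism, and Ppp1r3b and Ppp1r3c, which bring protein phosphatase 1 to glycogen. They were chosen by symbol, and all 8 of 8 were found among the 18018 genes of the deposited table. The table holds single hepatocytes of 5 male C57BL/6J littermate mice, measured by Drop-seq, in which each cell is lysed in a droplet and its mRNA molecules are marked for their cell and counted by molecular tags (UMIs). The mice were 8 weeks old when they were assigned to their diets, which were then given for 12 weeks. The regular chow diet, which the labels abbreviate as LFD, was fed to 2 mice (216 cells), and the high fat diet (HFD) to 3 mice (238 cells). Not given in the sources used here were the composition of the diets and the feeding state at sampling.

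The liver supplies the blood with glucose between meals and takes it up after them. In gluconeogenesis, phosphoenolpyruvate carboxykinase (Pck1) draws carbon out of oxaloacetate, fructose bisphosphatase (Fbp1) carries it past the irreversible phosphofructokinase step, and glucose-6-phosphatase (G6pc) releases free glucose. Liver pyruvate kinase (Pklr) runs the last step of glycolysis in the opposite direction. Glycogen synthase (Gys2) lengthens the glycogen chain and glycogen phosphorylase (Pygl) shortens it, and the phosphatase that the Ppp1r3 subunits carry to the particle activates the former and inactivates the latter. Glucagon and fasting raise Pck1 and G6pc transcription and insulin lowers it, whereas Pklr responds to glucose. Along the liver lobule, gluconeogenesis is known as a periportal function, at the side where blood enters, and glycolysis as a pericentral one.

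The libraries differed widely in size. The 5 mice gave 5 to 208 cells and 27903 to 656803 UMIs, 1499094 UMIs in all, and the 454 cells shared 0 barcodes between libraries. HFD mouse 1 stood apart from the others, with 5 cells, a median of 6598 UMIs but 636 genes per cell (1863 to 3076 UMIs and 744 to 1128 genes in the others), and 8.98% mitochondrial UMIs (5.10% to 5.63% in the others). Its sinusoidal endothelial markers summed to 932 CPM, from 1 of 8 genes with 7 at 0, against 13.4 to 25.9 CPM in the others. CPM here means the UMIs of a gene when a mouse is scaled to 1000000 UMIs. Sums of erythroid markers were 502 and 291 CPM for HFD mice 1 and 3, and 3.24 to 13.7 CPM for the other 3 mice. Hepatocyte markers were at 167500 to 205100 CPM in the 5 mice, and all 454 cells held UMIs of 3 or more of 10 of them, so no cell type that should lack the 8 genes was there to measure free RNA. The part of these differences in the results was not tested, and diet results are given with and without HFD mouse 1. The level of 3 counts, which 0 UMIs still allow, was 107.5 CPM for HFD mouse 1, 51.3 CPM for HFD mouse 3 and 4.57 to 9.71 CPM for the others. Such limits and all intervals below cover counting error only.

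All 8 genes are protein-coding in GENCODE vM21, whose coordinates are of GRCm38 (mm10). Pck1 lies on the plus strand of chromosome 2 from 173153048 to 173159273, and G6pc on the plus strand of chromosome 11 from 101367561 to 101377903. Fbp1 lies on the minus strand of chromosome 13 from 62864753 to 62888282, and Pklr on the plus strand of chromosome 3 from 89136142 to 89146784. Gys2 lies on the minus strand of chromosome 6 from 142422613 to 142473109, and Pygl on the minus strand of chromosome 12 from 70190811 to 70231488. Ppp1r3b lies on the plus strand of chromosome 8 from 35375739 to 35388139, and Ppp1r3c on the minus strand of chromosome 19 from 36731731 to 36736653. Fbp1 and Pck1 gave UMIs in 92.3% and 86.8% of all cells, Pygl in 57.3%, G6pc in 48.7%, Gys2 in 25.6%, Ppp1r3b in 23.8%, Pklr in 19.6% and Ppp1r3c in 14.1%. Over all cells the counts ran from 2635 UMIs of Fbp1 to 79 UMIs of Ppp1r3c, so the genes differ in how precisely they could be measured.

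The 3 gluconeogenic genes were higher toward the periportal side of the lobule in each of 4 mice, on both diets. No test was run within a diet. To place cells along the lobule, cells were ranked within their mouse by the ratio of UMIs of 20 pericentral genes (such as Cyp2e1 and Glul) to UMIs of 24 periportal genes (such as Cyp2f2 and Alb). None of the 8 genes enters the score, and each mouse was divided at its median into a periportal and a pericentral side of equal cell number. HFD mouse 1 was left out for its few cells. The promoters of the 3 genes that passed the test are printed here because these genes moved together along the lobule. They are RefSeq sequence of GRCm38.p6, the 250 bases before the start site, read 5′ to 3′ on the gene's strand, and capitals mark the motifs found. They span chr2:173152823-173153072 (plus strand), chr11:101367466-101367715 (plus strand) and chr13:62888283-62888532 (minus strand), in this order. The start sites of RefSeq for Pck1 and G6pc lie downstream of the gene starts of GENCODE, so the ends of these windows lie inside the GENCODE genes.
Pck1: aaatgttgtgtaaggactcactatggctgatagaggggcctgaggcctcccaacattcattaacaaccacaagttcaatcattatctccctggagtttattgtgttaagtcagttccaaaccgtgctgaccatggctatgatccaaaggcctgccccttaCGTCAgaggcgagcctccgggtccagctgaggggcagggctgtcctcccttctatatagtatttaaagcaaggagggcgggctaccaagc
G6pc: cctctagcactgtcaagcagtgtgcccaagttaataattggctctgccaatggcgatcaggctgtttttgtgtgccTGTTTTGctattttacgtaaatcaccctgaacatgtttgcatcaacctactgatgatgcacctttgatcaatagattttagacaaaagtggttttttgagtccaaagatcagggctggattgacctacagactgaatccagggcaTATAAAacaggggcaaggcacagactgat
Fbp1: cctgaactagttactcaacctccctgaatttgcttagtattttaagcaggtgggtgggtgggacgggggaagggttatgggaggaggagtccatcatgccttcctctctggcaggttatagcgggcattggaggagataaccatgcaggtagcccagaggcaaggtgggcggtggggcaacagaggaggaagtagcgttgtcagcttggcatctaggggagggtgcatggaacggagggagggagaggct

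A set of 6 letter patterns was searched on both strands of the promoters. TGACGTCA is the palindromic cAMP response element and TGACG, which it contains, is its core. The pattern TGTTTAC belongs to forkhead factors, and CAAAACA is known from insulin response elements. An E box reads CACGTG, and the TATA box of promoters was searched as TATAAA. The Pck1 window holds TGACG on the opposite strand, 90 to 86 bases before the start. In the G6pc window CAAAACA stands on the opposite strand 174 to 168 bases before the start, and TATAAA on the gene's strand 29 to 24 bases before it. The Fbp1 window holds 0 of the 6. Among 32851 windows of this length, TGACG is found in 17.8% and the full TGACGTCA in 1.55%. The pattern CAAAACA is found in 5.56% of windows, and TATAAA in 12.4% of them. The E box CACGTG is found in 6.02% of windows, and the forkhead pattern TGTTTAC in 3.17%. Among the other genes, Pygl holds TGACG on the opposite strand 44 to 40 bases before its start, Ppp1r3c holds CACGTG 104 to 99 bases before its start, and the later of the start sites of Pklr has TATAAA 31 to 26 bases before it. These matches describe letters in a window, and 6 of the 8 genes had an entry.

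Pck1 was at 1480, 1790, 1290 and 1363 CPM on the periportal side of LFD mouse 1, LFD mouse 2, HFD mouse 2 and HFD mouse 3. On the pericentral side the same mice had 870, 1544, 569 and 931 CPM. The periportal side was higher in each of the 4 mice, by 1.16 times in LFD mouse 2 and by 2.27 times in HFD mouse 2. On the log2 scale, the pericentral over the periportal side was at -0.81 (SE 0.13, limma's adjusted p = 1.317e-07).

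Fbp1 was at 1687, 2042, 2607 and 2571 CPM on the periportal side of the same mice in the same order. It was at 1114, 1306, 1399 and 2022 CPM on the pericentral side. Here too every mouse had the higher level on the periportal side, by 1.27 to 1.86 times, and the step was smallest in HFD mouse 3. This gave a log2 fold change of -0.78 (SE 0.12, limma's adjusted p = 1.936e-08).

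G6pc was at 284, 293, 313 and 584 CPM on the periportal side and at 165, 259.7, 193 and 128 CPM on the pericentral side. The ratio of sides ran from 1.13 in LFD mouse 2 to 4.55 in HFD mouse 3, where it rested on 15 and 4 UMIs. Its log2 fold change was -0.78 (SE 0.19, limma's adjusted p = 0.002072). The 95% intervals of the 3 genes overlap, with -1.06 to -0.56 for Pck1, -1.01 to -0.55 for Fbp1 and -1.15 to -0.40 for G6pc.

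Of the 8 genes, 3 passed the adjusted threshold of 0.05 toward the periportal side, where 3.91% of the 2556 genes tested passed in that direction, and 0 passed toward the pericentral side, where 3.76% did. With total UMIs in place of trimmed-mean scaling, the same fit called 144 genes pericentral and 69 periportal in place of 96 and 100, as the median of all genes moved from 0.02 to 0.12. The 3 genes passed with either scaling. In all, 6 genes (Pck1, G6pc, Fbp1, Pklr, Gys2 and Ppp1r3c) had a lower CPM on the pericentral side in each of the 4 mice, as 8.1% of all genes tested had. In HFD mouse 3 this rested on 2 against 1 UMIs for Gys2 and on 1 against 0 for Ppp1r3c, a difference that is not detectable at this depth. After cells were thinned to the same number of UMIs, which leaves out shallower cells, Gys2 and Ppp1r3c did not keep this order. Mean Gys2 UMIs per cell were 0.154 periportally and 0.343 pericentrally in LFD mouse 2, and 0.119 and 0.149 in HFD mouse 2. For Ppp1r3c they were 0.0513 and 0.0571 in LFD mouse 2. In their remaining mice both genes stayed lower on the pericentral side. With the 5 cells of HFD mouse 1 added, 0 of the 8 genes and 14 genes in all passed, and the log2 fold changes of Pck1, Fbp1 and G6pc were -0.88, -1.07 and -0.95 (limma's adjusted p = 0.241, 0.317 and 0.451).

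**Figure D1:**
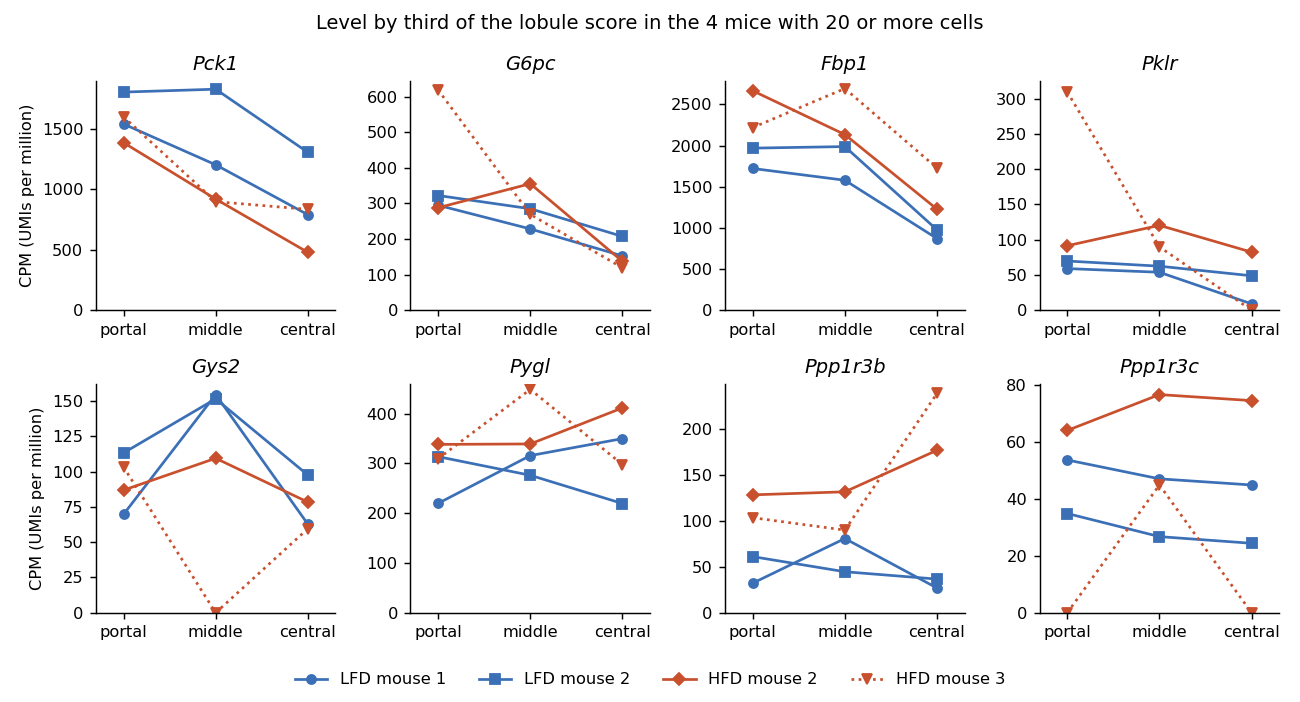
Level of each gene (vertical axis, CPM) in the periportal, middle and pericentral part of the cells of each mouse (horizontal axis), ranked by the lobule score, with a line for each of the 4 mice (blue LFD, red HFD, dotted for HFD mouse 3 with 8 or 9 cells a part). Pck1 in HFD mouse 2 steps down from 1385 to 919 and 478 CPM, while Pygl in the same mouse is at 338, 339 and 411 CPM.

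Divided into 3 parts rather than 2 sides, Pck1 in HFD mouse 2 stepped from 1385 CPM (periportal) to 919 CPM (middle) and 478 CPM (pericentral). In LFD mouse 1 it stepped from 1539 to 1202 and 789 CPM. In LFD mouse 2 the periportal and middle parts were alike (1803 and 1827 CPM), and the pericentral part was at 1305 CPM. Fbp1 in LFD mouse 2 had the same shape, with 1968, 1987 and 975.5 CPM. The lowest level was thus in the pericentral part for both genes in these mice, whether or not the middle part had already dropped.

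In the LFD mice periportal cells were deeper than pericentral ones, and in the HFD mice they were not. The median cell held 3532 UMIs on the periportal and 2068 on the pericentral side of LFD mouse 1, 3376 and 2795 in LFD mouse 2, 2134 and 2188 in HFD mouse 2, and 1752 and 2138 in HFD mouse 3. After each cell was thinned to 1728 UMIs, which leaves out shallower cells, Pck1 UMIs were found in 83.9% of 62 periportal and 71.2% of 52 pericentral cells of LFD mouse 1, and in 89.6% and 58.2% of 67 cells each of HFD mouse 2. The mean number of thinned Pck1 UMIs per cell was 2.65 against 1.44 in the former mouse and 2.27 against 0.806 in the latter. In LFD mouse 2 it was 2.74 against 2.54, and in HFD mouse 3 it was 3 against 1.38, from 6 and 8 cells. Alb gave 66.4% of the UMIs of the periportal list, and with a score that lacks Alb 3 of the 8 genes passed as well. Pck1, Fbp1 and G6pc each passed in 10 of the 11 alternative fits tried, the exception being that with all 5 mice. Glul, the marker of the innermost pericentral cells, had 0 UMIs on both sides of HFD mouse 3, so the division of that mouse rests on the other genes.

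Pklr was at 62.8, 76.3, 102 and 273 CPM on the periportal side and at 17.1, 43.3, 90.7 and 32.1 CPM on the pericentral side, in the same order of mice. It was lower on the pericentral side in each mouse, with 3 UMIs there in LFD mouse 1 and 1 in HFD mouse 3. The estimate of -0.78 (SE 0.32) equals that of Fbp1 and G6pc after rounding, but the limma adjusted p was 0.141.

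The genes of glycogen turnover had no difference between sides that passed the test. Gys2 was at 103, 129, 92.2 and 77.9 CPM on the periportal and 85.3, 115, 87.8 and 32.1 CPM on the pericentral side (log2 fold change -0.28, SE 0.26, limma's adjusted p = 0.63). Pygl was at 239.9, 311, 333 and 273 CPM on the periportal and 352, 231, 397 and 321 CPM on the pericentral side, higher pericentrally in 3 of 4 mice. Its log2 fold change was 0.08, with a 95% interval from -0.26 to 0.43 that does not reach the estimates of the 3 gluconeogenic genes. The difference between genes was not tested.

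The targeting subunits were measured with fewer UMIs. Ppp1r3b was at 44.3, 70.4, 118.5 and 77.9 CPM on the periportal and 51.2, 21.6, 173 and 193 CPM on the pericentral side (log2 fold change 0.17, SE 0.28, limma's adjusted p = 0.838). Its CPM was higher pericentrally in 3 of the 4 mice, with both HFD mice and LFD mouse 1 on that side. In LFD mouse 1 this rested on 12 periportal and 9 pericentral UMIs. The share of positive cells of that mouse went the other way, with 16.7% periportally and 12.1% pericentrally. Ppp1r3c was at 59.1, 35.2, 75.7 and 38.95 CPM on the periportal side. Pericentrally it was at 34.1, 21.6 and 68.0 CPM, with 0 UMIs in HFD mouse 3, which allows up to 96.3 CPM (log2 fold change -0.51, SE 0.35, limma's adjusted p = 0.456).

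Whether the step between sides depends on diet was tested as an interaction, with 2 mice a diet. It passed for 0 of the 8 genes, where 0.0782% of the genes tested passed. Pck1 had an interaction of -0.55 (HFD minus LFD, log2 scale, SE 0.26, limma's adjusted p = 0.942). The ratios of sides overlapped between diets, with 1.70 and 1.16 in LFD mice 1 and 2 and 2.27 and 1.46 in HFD mice 2 and 3. For Ppp1r3b the interaction was 1.06 (SE 0.64) in the opposite direction, and its 95% interval ran from -0.27 to 2.39. The other 6 genes had intervals that include 0.

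Between the diets, Ppp1r3b was higher in HFD mice and had the largest log2 fold change of the 8 genes in the fit of 5 mice and in that without HFD mouse 1. It did not have the largest without HFD mouse 3 (2.00, against -2.05 for G6pc) or with limma-trend on mean log values (0.425, against -0.448 for Pck1, natural log). Its protein, also called GL, is the main glycogen-targeting subunit of liver. It was at 47.0 and 48.5 CPM in LFD mice 1 and 2, from 21 and 15 UMIs, and at 287, 148 and 137 CPM in HFD mice 1, 2 and 3, from 8, 97 and 8 UMIs. All HFD mice lay above both LFD mice, and the 8 UMIs of HFD mouse 1 came from 2 cells. The LFD mice were nearly equal, but their exact 95% Poisson intervals run from 29.1 to 71.8 CPM and from 27.2 to 80.05 CPM. Their SD is thus well below counting error. The means were 47.8 ± 1.09 CPM (SD, n = 2) and 190.4 ± 83.6 CPM (SD, n = 3), and the log2 fold change was 1.75 (SE 0.49, limma's adjusted p = 0.421). Without HFD mouse 1 the log2 fold change was 1.59 (SE 0.28, limma's adjusted p = 0.00446), a 3.01-fold difference.

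In 5 mice, 0 of the 8 genes passed in limma, where 0.221% of the 3614 genes tested passed, and 1 of the 8 had an unadjusted p under 0.05, with 184 genes in all. Without HFD mouse 1, 1 of the 8 passed (Ppp1r3b), where 3.38% of 3670 genes did. Ppp1r3b also passed without 13 cells marked by at least 3 UMIs from a non-hepatocyte list (3 of them in HFD mouse 1), at a log2 fold change of 1.63 (limma's adjusted p = 0.0415), where 1.17% of genes passed. Without the cells that held under 0.2 genes per UMI, again 3 of them in HFD mouse 1, it was 1.55 (limma's adjusted p = 0.0459). In that fit 1.06% of genes passed. Both fits thus left out 3 of the 5 cells of HFD mouse 1 and are not independent of leaving that mouse out. Ppp1r3b did not pass in any alternative fit that kept all cells of HFD mouse 1. The raw-read name of HFD mouse 3 has another form than those of the other mice. Without that mouse the log2 fold change was 2.00 (SE 0.60, limma's adjusted p = 0.789), and 0 of 3609 genes passed, with 135 at an unadjusted p under 0.05.

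**Figure D2:**
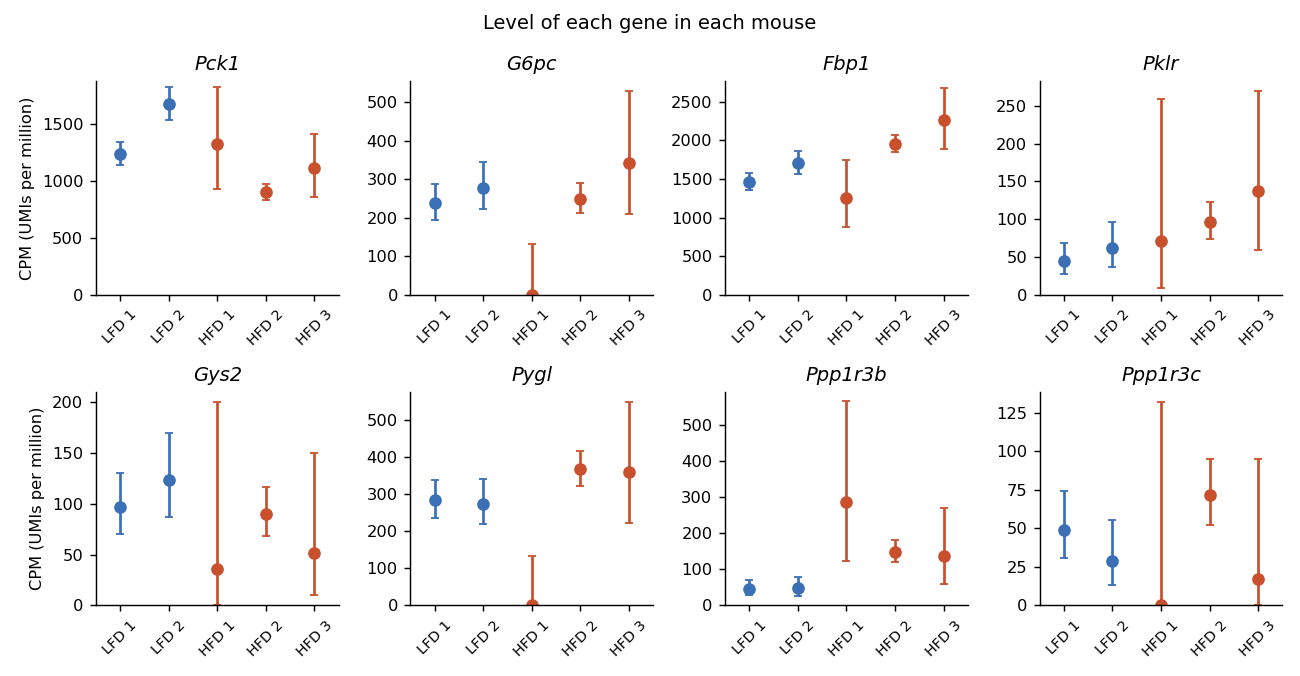
Level of each gene (vertical axis, CPM, from 0) in each mouse (horizontal axis, blue LFD, red HFD), with exact 95% Poisson intervals of the summed counts as bars. Ppp1r3b sits at 47.0 and 48.5 CPM in the LFD mice and at 137 to 287 CPM in the HFD mice, and G6pc, Pygl and Ppp1r3c are at 0 in HFD mouse 1.

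Shares of cells with a UMI come from the same UMIs as the levels and are no separate support. For Ppp1r3b they had the same order of diets, and how many of all genes have such shares was not counted. After thinning to 1728 UMIs, 9.65% of 114 cells of LFD mouse 1 (exact 95% binomial interval 4.92% to 16.6%) and 4.05% of 74 cells of LFD mouse 2 (0.844% to 11.4%) held a Ppp1r3b UMI. In HFD mouse 2 the share was 19.4% of 134 cells (13.1% to 27.1%), in HFD mouse 3 28.6% of 14 cells (8.39% to 58.1%) and in HFD mouse 1 40% of 5 cells (5.27% to 85.3%). The mean share was 6.85% in LFD and 29.3% in HFD mice (two-sided exact permutation test over mice, p = 0.2, the smallest that this test gives for 2 against 3 mice). Adjusted by Benjamini-Hochberg over the members, the p of this permutation test was 0.8. Unthinned, the shares were 14.4% and 15.5% in LFD mice and 40%, 32.2% and 28% in HFD mice 1, 2 and 3. Positive thinned cells held a mean of 1 UMI in both LFD mice and HFD mouse 3 and 1.12 in HFD mouse 2. At counts this low a higher level appears mostly as more positive cells. The shares therefore cannot tell more expressing cells from more UMIs per cell. In HFD mouse 1 the 2 positive cells held a mean of 2 UMIs.

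**Figure D3:**
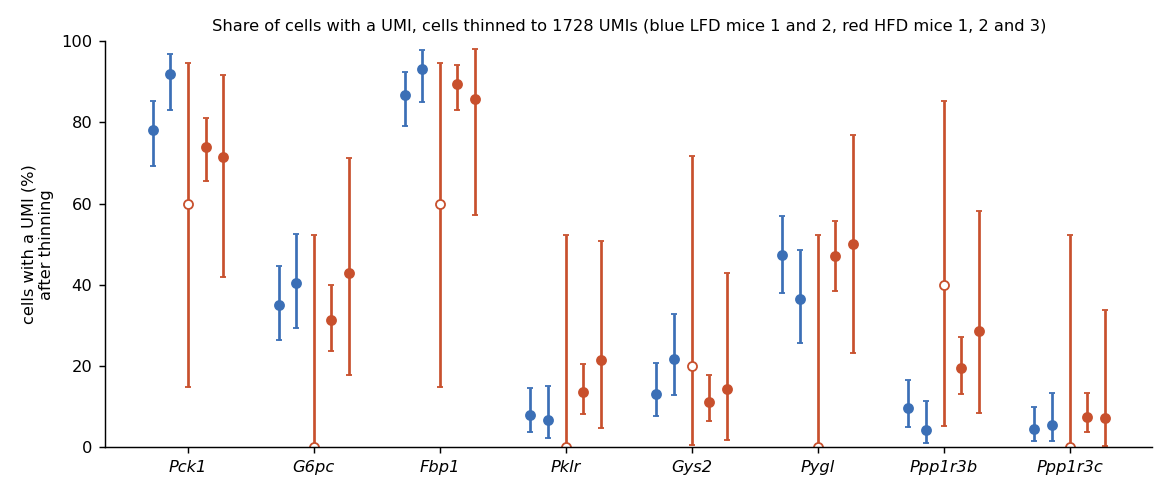
Share of cells with at least 1 UMI of each gene (vertical axis, percent) after each cell was thinned to 1728 UMIs, per mouse, with exact 95% binomial intervals as bars (blue LFD mice 1 and 2, red HFD mice 1, 2 and 3 from left to right, open circles for HFD mouse 1). For Ppp1r3b the LFD mice are at 9.65% and 4.05% and the HFD mice at 19.4% or more.

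Ppp1r3c, which encodes the related subunit PTG, had no such pattern. It was at 49.2 and 29.1 CPM in LFD mice and at 0, 71.6 and 17.1 CPM in HFD mice 1, 2 and 3, from 22, 9, 0, 47 and 1 UMIs. HFD mice 2 and 3 lay on either side of the LFD mice. The mean was 39.2 ± 14.2 CPM (SD, n = 2) in LFD and 29.5 ± 37.4 CPM (SD, n = 3) in HFD mice, whereas the fitted log2 fold change was 0.16 (SE 0.67, limma's adjusted p = 0.996), so mean and fit differ in sign. The 95% interval of the fit, from -1.30 to 1.62, ends below the estimate of 1.75 for Ppp1r3b. It overlaps the interval of Ppp1r3b, from 0.674 to 2.82, and the difference between these genes was not tested.

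Gys2, glycogen synthase, was at 96.2 and 123 CPM in LFD mice 1 and 2 and at 35.8, 89.8 and 51.3 CPM in HFD mice 1, 2 and 3. All HFD mice lay below both LFD mice, but the value in HFD mouse 1 rests on 1 UMI and that in HFD mouse 3 on 3, and HFD mouse 2 lay close below LFD mouse 1. The fit gave a log2 fold change of -0.60 (SE 0.52, limma's adjusted p = 0.988), and -0.29 (SE 0.30, limma's adjusted p = 0.668) without HFD mouse 1. The share of thinned cells with a Gys2 UMI overlapped between diets, with 13.2% and 21.6% in LFD mice and 20%, 11.2% and 14.3% in HFD mice 1, 2 and 3.

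Pygl, glycogen phosphorylase, was at 284 and 275 CPM in LFD mice and at 367 and 359 CPM in HFD mice 2 and 3, with 0 UMIs in HFD mouse 1. HFD mice 2 and 3 lay above both LFD mice, while the limit of 107.5 CPM in HFD mouse 1 lies below every other mouse. The fitted log2 fold change turned with that mouse, from -0.50 (SE 0.78, limma's adjusted p = 0.988) to 0.37 (SE 0.19, limma's adjusted p = 0.326) without it. Thinned shares of positive cells were 47.4% and 36.5% in LFD mice and 47.0% and 50% in HFD mice 2 and 3.

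Pklr was at 44.8 and 61.5 CPM in LFD mice, from 20 and 19 UMIs, and at 71.7, 95.9 and 137 CPM in HFD mice 1, 2 and 3, from 2, 63 and 8 UMIs. The groups did not overlap, although the lowest HFD mouse rests on 2 UMIs. The means were 53.1 ± 11.8 CPM (SD, n = 2) and 101.5 ± 32.9 CPM (SD, n = 3). In the fit, Pklr had a log2 fold change of 0.95 (SE 0.50, limma's adjusted p = 0.988), and 0.94 (SE 0.30, limma's adjusted p = 0.107) without HFD mouse 1, with a 95% interval from 0.30 to 1.58. Thinned shares were 7.89% and 6.76% in LFD mice and 13.4% and 21.4% in HFD mice 2 and 3, with 0 of 5 cells in HFD mouse 1 (exact 95% binomial interval up to 52.2%).

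Pck1 was at 1240 and 1679 CPM in LFD mice and at 1326, 903 and 1112 CPM in HFD mice 1, 2 and 3. HFD mice 2 and 3 lay below both LFD mice, and HFD mouse 1 between them. Pck1 had a log2 fold change of -0.54 (SE 0.30, limma's adjusted p = 0.988), and -0.60 (SE 0.18, limma's adjusted p = 0.0799) without HFD mouse 1. Thinned shares of positive cells were 78.1% and 91.9% in LFD mice and 60%, 73.9% and 71.4% in HFD mice 1, 2 and 3 (means 85.0% and 68.4%, two-sided exact permutation p = 0.2). The shares did not overlap between diets, unlike the levels, and how many of all genes have such shares was not counted. Their exact 95% binomial intervals did overlap, with 69.35% to 85.3% in LFD mouse 1 and 65.6% to 81.1% in HFD mouse 2. The shares of HFD mice 1 and 3 rest on 5 and 14 cells.

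Fbp1 had the opposite order in HFD mice 2 and 3. It was at 1461 and 1712 CPM in LFD mice and at 1254, 1958 and 2258 CPM in HFD mice 1, 2 and 3. HFD mice 2 and 3 lay above both LFD mice and HFD mouse 1 below them. Its log2 fold change was 0.22 (SE 0.30, limma's adjusted p = 0.988), and 0.35 (SE 0.15, limma's adjusted p = 0.223) without HFD mouse 1.

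G6pc was at 237 and 278 CPM in LFD mice and at 248 and 342 CPM in HFD mice 2 and 3, which overlapped the LFD mice. HFD mouse 1 had 0 UMIs, below the 107.5 CPM that 3 counts would give. Without it the log2 fold change was 0.05, with a 95% interval from -0.39 to 0.50, and with it -0.63 (SE 0.73, limma's adjusted p = 0.988). The wider of these intervals runs from -2.22 to 0.95.

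**Figure D4:**
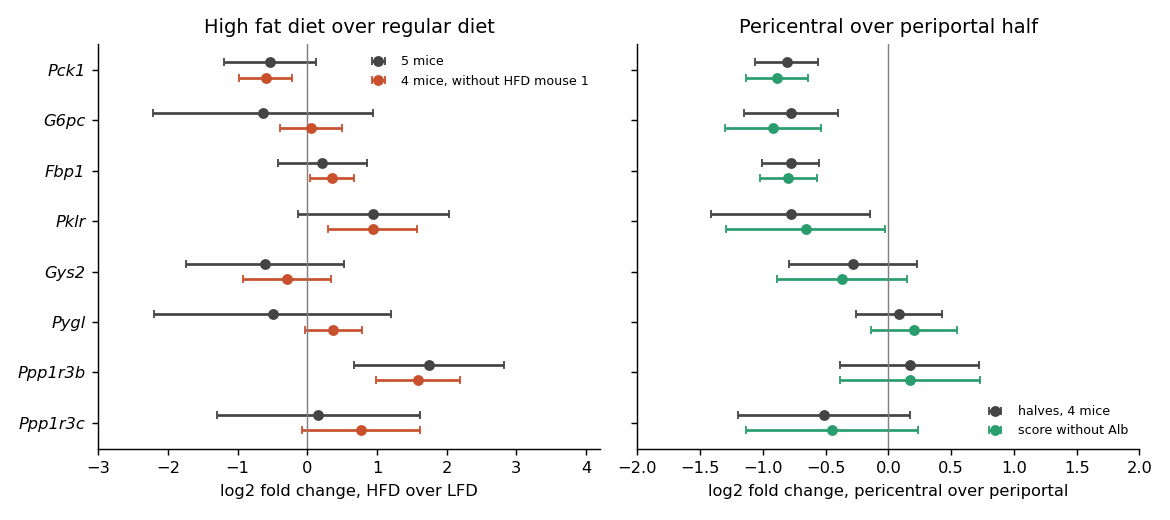
Fitted log2 fold changes (horizontal axes) of the 8 genes with 95% intervals from limma as bars, for diet on the left (grey 5 mice, red without HFD mouse 1) and for the pericentral over the periportal side on the right (grey all score genes, green a score without Alb). Ppp1r3b at 1.75 and 1.59 has both diet intervals above 0, and on the right Pck1, Fbp1 and G6pc sit at -0.81, -0.78 and -0.78. The intervals are not adjusted for the number of genes, and in 5 mice limma's adjusted p of Ppp1r3b was 0.421. Without HFD mouse 1 the diet intervals of Pck1, Fbp1 and Pklr also exclude 0.

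Counted over the 8 genes, Pklr and Ppp1r3b had every HFD mouse above every LFD mouse, as 8.88% of all genes tested had, and Gys2 had every HFD mouse below, as 14.3% had. Without HFD mouse 1, 4 genes lay above (Fbp1, Pklr, Pygl and Ppp1r3b) and 2 below (Pck1 and Gys2), against 20.6% and 20.2% of all genes tested. An unadjusted p under 0.05 was found for 4 of the 8 genes (Pck1, Fbp1, Pklr and Ppp1r3b) in that fit, where 18.2% of all genes had one. The median log2 fold change of the 8 genes was -0.17 in 5 mice and 0.36 without HFD mouse 1, against -0.08 and -0.0023 over all genes tested.

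Ratios of UMIs within a mouse do not depend on how libraries are scaled, and 4 pairs of the 8 genes are given as descriptions, chosen after the values were seen. Ppp1r3b made up 32.8% (exact 95% interval 21.6% to 45.7%) and 28.3% (16.8% to 42.4%) of the UMIs of Ppp1r3b and Gys2 together in LFD mice 1 and 2. It made up 88.9% (51.7% to 99.7%), 62.2% (54.1% to 69.8%) and 72.7% (39.0% to 94.0%) in HFD mice 1, 2 and 3. In LFD mice there were more Gys2 than Ppp1r3b UMIs, and in all HFD mice fewer. Fbp1 UMIs were 1.18 and 1.02 times those of Pck1 in LFD mice, 2.17 and 2.03 times in HFD mice 2 and 3, and 0.946 times in HFD mouse 1. Pklr UMIs were 0.0361 and 0.0366 times those of Pck1 in LFD mice and 0.0541, 0.106 and 0.123 times in HFD mice 1, 2 and 3. Pygl UMIs were 2.95 and 2.24 times those of Gys2 in LFD mice and 4.08 and 7 times in HFD mice 2 and 3, with 0 against 1 UMI in HFD mouse 1.

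Cells that held UMIs of genes with opposite roles were counted after thinning, with no test. Of the 18 thinned cells of HFD mouse 2 with a Pklr UMI, 14 also held Pck1 (77.8%), against 73.9% of all 134 cells. In LFD mouse 1 it was 7 of 9 cells (77.8%), against 78.1% of all 114. Of the 63 cells of HFD mouse 2 with Pygl, 8 also held Gys2 (12.7%), against 11.2% of all cells. The same share was 13.0% of 54 Pygl cells of LFD mouse 1, against 13.2% of all cells. In LFD mouse 2, Pck1 was in 5 of 5 Pklr cells, against 91.9% of all cells, and Gys2 in 4 of 27 Pygl cells (14.8%), against 21.6%. In HFD mouse 3, Pck1 was in 2 of 3 Pklr cells, against 71.4%, and Gys2 in 0 of 7 Pygl cells, against 14.3%. HFD mouse 1 had 0 cells with Pklr or Pygl. The shares thus lay near those of all cells in the mice with most cells, and on either side of them in the others.

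Over the 454 cells, with deposited log values centred within each mouse, Fbp1 and Pck1 had a Pearson correlation of 0.29. G6pc had one of 0.12 with each of them, and the next highest pair was G6pc with Pklr at 0.10. Among genes with a UMI in over 20% of cells, those closest to Pck1 were Mup3 (0.37), Cyp2f2 (0.31) and Mup20 (0.30). Those closest to Fbp1 were Mup3 (0.45), Mup20 (0.45) and Alb (0.41), all secreted liver proteins. Those closest to Pygl were Cyp8b1, the sterol 12-alpha-hydroxylase (0.20), Psmd11, a proteasome subunit (0.16), and Slc27a5, a bile acid CoA ligase (0.16). Cells of a mouse share a library, their depths differ, and the values are given as descriptions.

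Of 118 other genes of glucose metabolism in 7 lists, 114 were found and 60 could be tested for diet, of which 0 passed in 5 mice. They had 23 log2 fold changes above 0 and 37 below, with a median of -0.17 against -0.08 over all genes. Without HFD mouse 1, 0 rose and 1 fell of 60, a share below the 3.38% of all genes that passed in that fit. The gene was Mdh1, the cytosolic malate dehydrogenase that feeds oxaloacetate to Pck1. It was at 953 and 883 CPM in LFD mice and at 107.5, 604 and 564 CPM in HFD mice 1, 2 and 3 (log2 fold change without HFD mouse 1 -0.64, SE 0.17, limma's adjusted p = 0.0493). In 5 mice its log2 fold change was -1.13 (SE 0.48, limma's adjusted p = 0.916).

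Of these genes 50 could be tested along the lobule, and 4 passed toward the pericentral and 2 toward the periportal side. Over all genes tested, 3.76% passed toward the pericentral and 3.91% toward the periportal side. Toward the periportal side, Got1, the cytosolic aspartate aminotransferase, was at 247, 358, 207 and 156 CPM on the periportal and 148, 216, 113 and 128 CPM on the pericentral side of the 4 mice (log2 fold change -0.86, SE 0.20, limma's adjusted p = 0.00112). It was higher on the periportal side in every one of the 4 mice.

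Of the 4 pericentral genes, 3 belong to the list of fructose, galactose and glycerol entry, of which 6 were tested (5 above 0, median 0.63 against 0.02 over all genes). Over all genes tested 3.76% passed in that direction, and the other 6 lists had 1 such gene together. Sord, sorbitol dehydrogenase, was at 546, 387, 464 and 818 CPM on the periportal and 898, 750.2, 1008 and 995 CPM on the pericentral side (log2 fold change 0.77, SE 0.14). Aqp9, the glycerol channel of hepatocytes, had a log2 fold change of 1.16 (SE 0.26), and Gpd1, the glycerol-3-phosphate dehydrogenase of the cytosol, one of 0.87 (SE 0.23). Gpd1 was higher pericentrally in 3 of 4 mice, with 106 CPM periportally and 86.6 CPM pericentrally in LFD mouse 2. Dlat, a subunit of the pyruvate dehydrogenase complex, was the other (1.02, SE 0.34, limma's adjusted p = 0.0422).

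The remaining lists had 0 genes past the threshold for diet or lobule side, and the most abundant members are given. Gckr, the glucokinase regulatory protein, was at 114 and 110 CPM with LFD and at 143, 137 and 222 CPM in HFD mice 1, 2 and 3, and Slc2a2, the liver glucose transporter, at 152 and 110 CPM and at 71.7, 177 and 85.5 CPM. Ugp2, which makes the UDP-glucose that Gys2 uses, was at 275 and 223 CPM with LFD and at 143, 384 and 376 CPM with HFD. Ppp1ca, a catalytic subunit of the phosphatase that Ppp1r3b targets, was at 98.5 and 159 CPM and at 71.7, 80.7 and 205 CPM. Creb3l3, a liver transcription factor of the fasting response, was at 492 and 353 CPM and at 71.7, 372 and 547 CPM. Tat, a glucocorticoid-responsive aminotransferase that is part of the periportal score, was at 707 and 912.5 CPM and at 1398, 655 and 889 CPM. The diets overlapped for 5 of these 6 genes. For Gckr all HFD mice lay above both LFD mice, as 8.88% of all genes tested did, and HFD mouse 1 rested on 4 UMIs. Its log2 fold change was 0.47 (SE 0.45, limma's adjusted p = 0.988).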

How the data were processed

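Drop-seq cells were assigned to 5 mice (2 LFD, 3 HFD) by the prefix of their column names. STAR 2.6.0a and mm10 were used, per the submitters' processing notes. Not given in the sources used here are the cell filter, the annotation and the handling of strand and doublets, and no doublet caller was run. The table deposited by the authors holds the natural log of 1 plus UMIs per 10000 UMIs of a cell, and 100% of values above 0 were whole UMIs within a tolerance of 0.001. The other deposited table, named for MAGIC, was taken to hold smoothed values in natural log units too.

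Recovered UMIs were summed per mouse, or per mouse and lobule side with mouse as a block, and fitted by limma voom (version 3.58.1, in R 4.3.3) with trimmed-mean factors. A gene was kept with 15 UMIs in total and, in 2 libraries, a level of 32.4 CPM (diet) or 57.7 CPM (sides), which is 10 UMIs in the median library. All 8 genes passed this filter. P-values were adjusted by Benjamini-Hochberg over all genes tested, with a threshold of 0.05. In limma the variance of each gene is moderated with that of all genes. The p-values thus rest in large part on this pooled variance, and not only on a gene's own spread between these mice. Cells were thinned to 1728 UMIs, the 25th percentile. Permutation tests used SciPy 1.17.1 and intervals of shares are exact (Clopper-Pearson). The fits were also run on simulated counts with the same variability for all genes and mice. Such counts do not mimic a library like HFD mouse 1, and no support for the results is drawn from them. The members, lists and tests were chosen with earlier results of these data known. Of the other pathway genes, those past the threshold are named or, in a list with none, the 2 of highest CPM, and 1 gene is not reported here. Alternatives were other scalings, filters, scores and cell sets, limma-trend, a replicate block, and leaving out each mouse.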

Additional observations from a re-analysis of the deposited data

How the results depend on the processing

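The number of genes called for diet in 5 mice (8) was 2 with no level filter, 0 with a stricter filter, 14 with limma-trend on mean log values, 29 with the replicate block, 41 without cells with non-hepatocyte markers and 37 without cells of few genes per UMI. It ranged from 0 to 124 with a mouse left out, and was 0 without each mouse other than HFD mouse 1. Of the 8 glucose genes the number called for diet was 1 without either set of cells and 0 to 1 with a mouse left out. Same-numbered mice had correlations of 0.01 and 0.04 between their deviations from the mean of their diet. With 2 LFD mice these deviations mirror each other, and 1 pair rests on the 5 cells of HFD mouse 1. This check therefore cannot settle whether same-numbered mice are pairs. The main fit does not treat them as pairs, and 0 of the 8 genes passed with the block. A diet left with 1 mouse was assumed to vary like the other. The lobule fit called 196 genes, 105 to 175 with a mouse left out (108 without LFD mouse 2, 105 without HFD mouse 2) and 14 with all 5 mice, where 0 of the 8 genes passed. In each other alternative 3 of them passed. Of the 8 genes, the number whose shares of positive cells did not overlap was 2 thinned (Pck1 and Ppp1r3b) and 4 unthinned. Thinned to the median of 2433 UMIs, the shares of Pck1, Pklr and Ppp1r3b did not overlap. How many of all genes have shares that do not overlap was not counted, so these numbers have no background.

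Some estimates that passed no test changed sign. For diet, Pygl was at 0.01 without LFD mouse 1, 0.37 without HFD mouse 1 and 0.0211 without cells of few genes per UMI, and G6pc at 0.0544 without HFD mouse 1 (down to -2.05 with another mouse left out). Pygl reached -1.89 and Ppp1r3c 0.77 with a mouse left out. Ppp1r3c was at -0.41 with no level filter, -0.0339 (natural log) with limma-trend, -0.20 without LFD mouse 2 and -0.23 without HFD mouse 3. Along the lobule, Pygl was at -0.0986 to 0.28 with a mouse left out (lowest without LFD mouse 1), and Ppp1r3b at -0.28 (without HFD mouse 2) to 0.43, and at -0.26 with all 5 mice. Comparing only the outer parts, the interaction was 0.0441 for Fbp1 and -0.0769 for Gys2. The cause of these changes was not tested. Leaving out cells of few genes per UMI, the scores without Alb or from mean log values, and the interaction of outer parts were chosen after seeing the data.

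Depth limits the values of HFD mouse 1, with 0 UMIs of G6pc, Pygl and Ppp1r3c, 1 of Gys2 and 2 of Pklr. Diet values rest on 2 LFD mice. The level of each gene is its share of all UMIs of a mouse.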

Other observations

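The smoothed table holds the same genes and cells with far less spread. Over cells, the SD of Ppp1r3b was 0.0164 in the smoothed and 0.713 in the unsmoothed table, on the natural log scale. Its smoothed mean was 0.387 in both LFD mice and 0.4115, 0.417 and 0.4115 in HFD mice 1, 2 and 3. The HFD minus LFD difference of means was 0.0263 there and 0.425 in the unsmoothed table. Pck1 differed by -0.0355 in the smoothed and -0.448 in the unsmoothed table, and Gys2 by -0.0179 and -0.168. For G6pc the sign differed between the tables (0.00695 smoothed and -0.253 unsmoothed), and likewise for Ppp1r3c (0.00687 and -0.0339). HFD mouse 1, with 0 UMIs of G6pc and Pygl, had smoothed means of 0.916 and 1.05 for them. The other mice were at 0.902 to 0.910 and 1.06 to 1.07.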
